A study of Mus musculus with 5 samples.

Results

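The semaphorins, their plexin and neuropilin receptors, and the Eph receptors with their ephrin ligands were examined as 1 set of cell guidance genes in mouse embryonic stem cells (ESCs) and in ESC-like cells grown out of teratomas. Members were taken by symbol: semaphorins of classes 3 to 7, plexins A to D, both neuropilins, EphA and EphB receptors, and ephrin-A and ephrin-B ligands. Of the 19938 genes that had a probe set naming them alone, 52 fitted these names, and the brightest probe set stood for each gene. The set held 20 semaphorins (7 of class 3 and 13 of classes 4 to 7), 9 plexins, 2 neuropilins, 13 Eph receptors and 8 ephrins. A further gene of the family, Ephb2, was not analysed here.

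Semaphorins are secreted or membrane-bound cues that steer growing axons, vessels and migrating cells. Secreted class 3 semaphorins bind a neuropilin that is held in a complex with an A-type plexin, whereas membrane semaphorins bind plexins directly, and the plexin carries the signal into the cell. Eph receptors are receptor tyrosine kinases that meet ephrins on a neighbouring cell, EphA receptors mostly binding the lipid-anchored ephrin-A ligands and EphB receptors the transmembrane ephrin-B ligands, and ligand and receptor cells can both respond.

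Total RNA of 5 cell populations was hybridised to 1 Affymetrix Mouse Gene 1.0 ST array each. The parental ESCs were of the B6CBAF1 strain. The ESC-like cells came from subcutaneous teratomas formed by these ESCs in B6CBAF1 recipients (homologous injection alone, 1 array), in B6D2F1 recipients (heterologous injection alone, 1 array), or in B6D2F1 recipients together with B6D2F1 embryonic fibroblasts (co-injection, batches 1 and 2, 1 array each). All 5 populations were kept on mitotically inactivated ICR mouse fibroblasts with leukemia inhibitory factor, for which the study's methods give a higher concentration for the teratoma-derived cells than for the parental ESCs. No genetic modification was named in the labels, and nothing in them says how many teratomas or colonies a line came from. The study itself reports a single teratoma after heterologous injection alone, and several after homologous injection and after co-injection. For the heterologous line, teratoma and condition therefore cannot be told apart.

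Values are log2 RMA values, as deposited, and a difference of 1 is a 2-fold difference. Outside the co-injection pair each condition was 1 array, so no difference has a replicate check. The fold differences are given without a p-value. Those from a limma fit in the closing sections borrow the spread of the co-injection pair. Array and condition cannot be told apart. Each comparison with parental ESCs used the same parental array. The array medians lay between 7.48 and 7.54, and the pluripotency markers of the labelled cell type were present, with all 10 of a list led by Pou5f1, Nanog and Sox2 above the median of all values (7.49) on every array. The 3 of them over 2-fold lower than in parental ESCs were Zfp42 (−1.63), Esrrb (−1.18) and Fgf4 (−1.11), all in the heterologous line. There 1.95% of all genes were over 2-fold lower. Of the 52 members, 43 had a highest value above 7.49. The other 9 were Sema3d, Sema4f, Plxna4, Plxnb3, Plxnc1, Epha3, Epha5, Epha6 and Ephb1.

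More members lay over 2-fold from parental ESCs in the heterologous line than in the others. In that line 12 of 52 members (23.1%) were over 2-fold higher, beside 3.98% of all genes, and 0 were over 2-fold lower, beside 1.95%. Fibroblast markers were highest in the same line, with a list mean of 9.72 beside 8.22 in parental ESCs, and their part in these counts was not tested. In the homologous line 5 members (9.62%) were over 2-fold higher, beside 1.45% of all genes, and 1 (1.92%) was over 2-fold lower, beside 1.6%. For the mean of the co-injection pair 4 members (7.69%) were over 2-fold higher, beside 0.647%, and 0 were lower, beside 1.44%. The median difference over the members was small in each case, at 0.03 in the homologous line, 0.15 in the heterologous line and 0.07 in the co-injection mean, beside medians over all genes of −0.01, −0.04 and 0.04. Without the 9 dim members named above the homologous median was 0.26. The counts came from a few members. In all, 14 members (26.9%, beside 7.31% of all genes) lay over 2-fold from parental ESCs on at least 1 array, and 38 on none. Without the heterologous array the 14 became 7 (beside 3.65% of all genes).

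**Figure D1:**
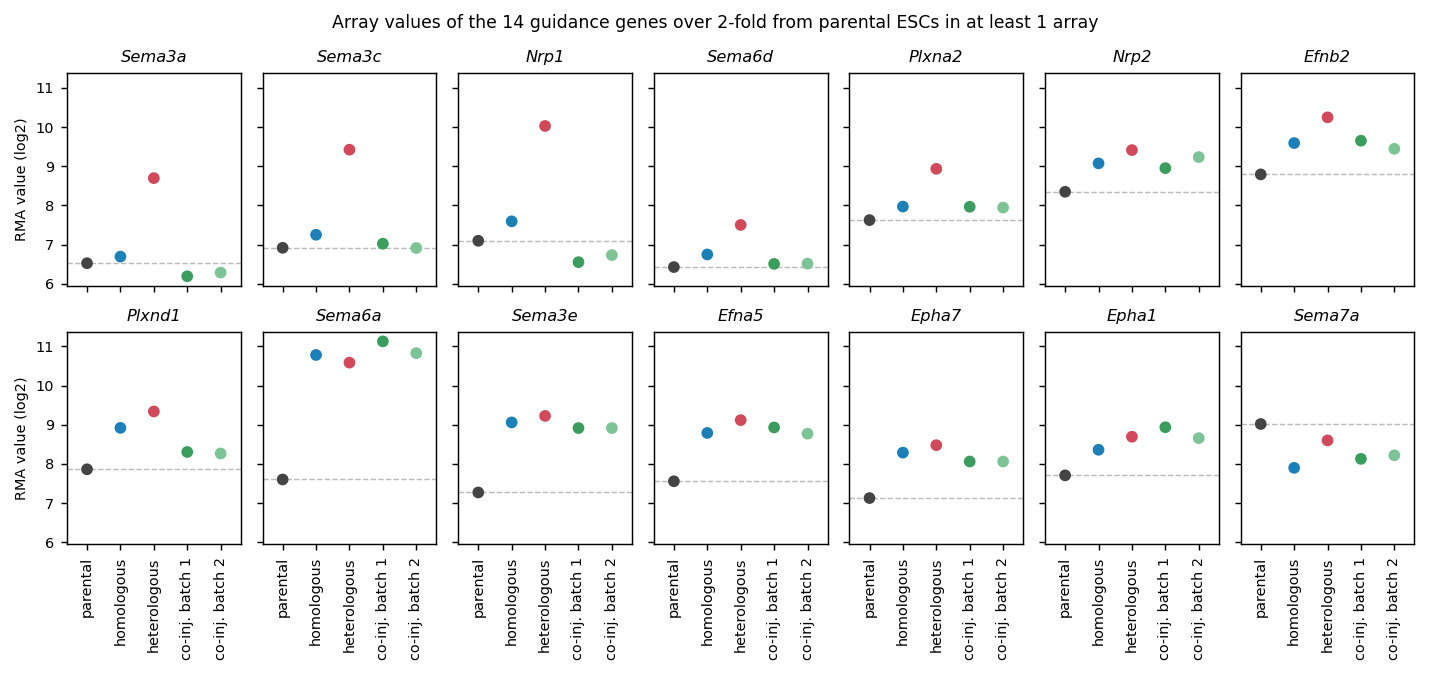
Log2 RMA value on each array (vertical axis) for the 14 members over 2-fold from parental ESCs on at least 1 array, 1 point an array, with the dashed line at the parental value. Nrp1, Sema3a and Sema3c stand high on the heterologous array alone (10.03, 8.70 and 9.42), whereas Sema6a and Sema3e stand high on all 4 ESC-like arrays.

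Among the class 3 semaphorins, the secreted ligands of neuropilins, Sema3a and Sema3c lay over 2-fold higher in the heterologous line alone. Sema3a, which repels growing axons, read 6.52 in parental ESCs, 6.69 in the homologous line, 8.70 in the heterologous line and 6.19 and 6.28 in the co-injection batches. The heterologous value was thus 4.51-fold the parental value, whereas both co-injection values were below it, by −0.33 and −0.24. The parental and co-injection values of Sema3a were under the median of all values (7.49), where small differences are uncertain. Sema3c, which is required in the developing outflow tract of the heart, read 6.92, 7.25, 9.42, 7.02 and 6.91 in the same order. Its heterologous value was 5.68-fold the parental value and 4.51-fold the homologous value. The other 4 arrays lay between 6.91 and 7.25, under the median of all values. The co-injection SDs were 0.066 for Sema3a and 0.078 for Sema3c (n = 2), and they do not measure the spread of the single heterologous array.

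Nrp1, the neuropilin that binds Sema3a and is also a co-receptor for vascular endothelial growth factor, had the same profile, with the widest range of the members among the 4 ESC-like arrays. It read 7.10 in parental ESCs, 7.59 in the homologous line, 10.03 in the heterologous line and 6.55 and 6.73 in the co-injection batches. The heterologous value was 7.63-fold the parental value, 5.41-fold the homologous value and 10.5-fold the co-injection mean (6.64 ± 0.13, SD, n = 2). Both co-injection arrays lay below parental ESCs, by −0.55 and −0.36, with the parental and co-injection values all under the median of all values (7.49). Nrp2, a neuropilin that binds Sema3f, behaved differently, with 8.35 in parental ESCs and 9.07, 9.41, 8.95 and 9.23 in the ESC-like lines. All 4 ESC-like arrays were therefore above parental ESCs, by 0.60 to 1.06, and the heterologous line alone was over 2-fold. The batches differed by 0.28 for Nrp2, the second widest gap of the members after Sema6a.

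The stretches around the annotated start sites of these 3 genes that stood apart in the heterologous line, and of Sema3e, which was high in all 4 ESC-like lines, are shown because the genes moved together in some conditions and not in others. Each runs from 250 bases before to 50 after the RefSeq start (build GRCm38.p6, all on the plus strand), 5′ to 3′. Capitals mark a GC box (GGGCGG on either strand) or an E-box (CACGTG).
Nrp1, chr8:128358823-128359122: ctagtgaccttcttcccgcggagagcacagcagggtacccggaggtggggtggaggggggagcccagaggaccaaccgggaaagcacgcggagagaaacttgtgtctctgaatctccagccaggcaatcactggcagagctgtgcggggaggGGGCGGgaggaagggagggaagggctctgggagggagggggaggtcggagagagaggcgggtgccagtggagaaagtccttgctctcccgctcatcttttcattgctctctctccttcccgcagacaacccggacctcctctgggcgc
Sema3a, chr5:13396534-13396833: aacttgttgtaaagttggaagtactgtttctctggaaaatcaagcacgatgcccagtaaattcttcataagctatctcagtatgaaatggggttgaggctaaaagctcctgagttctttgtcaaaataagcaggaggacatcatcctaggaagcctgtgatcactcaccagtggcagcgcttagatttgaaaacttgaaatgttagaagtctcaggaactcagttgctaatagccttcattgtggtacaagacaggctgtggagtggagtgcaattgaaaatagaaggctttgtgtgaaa
Sema3c, chr5:17574566-17574865: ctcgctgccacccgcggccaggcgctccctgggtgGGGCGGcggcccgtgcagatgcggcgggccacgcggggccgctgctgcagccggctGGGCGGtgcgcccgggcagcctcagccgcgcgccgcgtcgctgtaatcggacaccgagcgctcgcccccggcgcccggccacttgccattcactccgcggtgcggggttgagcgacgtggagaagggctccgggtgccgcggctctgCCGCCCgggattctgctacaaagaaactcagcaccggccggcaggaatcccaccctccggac
Sema3e, chr5:14025026-14025325: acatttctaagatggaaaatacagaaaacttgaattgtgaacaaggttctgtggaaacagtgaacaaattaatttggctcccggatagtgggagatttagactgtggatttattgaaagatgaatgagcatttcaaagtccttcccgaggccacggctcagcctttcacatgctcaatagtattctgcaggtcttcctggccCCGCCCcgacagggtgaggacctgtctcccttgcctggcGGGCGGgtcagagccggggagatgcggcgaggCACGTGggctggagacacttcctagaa
The 3 genes with the shared heterologous profile did not share a base composition. The Sema3c window held 42 CpG dinucleotides with 75.7% G and C, more CpG than 97.0% of the 32851 promoters of this length, and 3 GC boxes. The Nrp1 window held 14 CpG, 64.0% G and C and 1 GC box. The Sema3a window held 2 CpG and 41.3% G and C, with no GC box, and the Sema3e window held 11 CpG, 2 GC boxes and 1 E-box. A GC box was found in 35.7% of all promoters and an E-box in 7.15%. A TATA box (TATAAA, in 13.6% of promoters) and an AP-1 motif (TGACTCA, in 5.2%) were searched on both strands and had no match in any of the 4 windows. Such matches are a description of letters only. The 60 promoters listed for 46 members held a median of 19.5 CpG, beside 7 over all promoters.

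The remaining class 3 member that lay over 2-fold from parental ESCs was Sema3e, which binds plexin-D1 without a neuropilin and restrains vessel growth. It read 7.27 in parental ESCs, 9.06 in the homologous line, 9.22 in the heterologous line and 8.91 in both co-injection batches. The ESC-like lines thus lay together, 3.13-fold to 3.87-fold above parental ESCs and within 0.31 of each other. The batch values were identical, as for 4 members and 5.90% of all genes, so the SD of 0 is no measure of error there. Its receptor gene Plxnd1 read 7.86 in parental ESCs and 8.92, 9.34, 8.30 and 8.26 in the ESC-like lines. Plxnd1 was over 2-fold higher in the homologous (1.06) and heterologous (1.48) lines but only 0.42 higher in the co-injection mean, so ligand and receptor did not share a profile. The other class 3 members differed by no more than Sema3b in the homologous line. The differences of Sema3b were 0.35, 0.04 and 0.18 in the homologous line, the heterologous line and the co-injection mean, beside those of Sema3d (−0.05, 0.26 and 0.28) and Sema3g (−0.05, −0.12 and 0.10).

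Sema3d, Sema3a, Sema3e and Sema3c follow each other in this order along chromosome 5, with other genes between them. The 14 measured neighbours had median differences of 0.04, 0.01 and 0.03 in the homologous line, the heterologous line and the co-injection mean. Cacna2d1, a calcium channel subunit gene that lies between Sema3e and Sema3c, was the one neighbour over 2-fold from parental ESCs (1.14, 1.78 and 0.89). Cacna2d1 was higher in each line, and the other neighbours between Sema3d and Sema3c, Speer3, Pclo and Hgf, were below the median of all values on every array. Such dim genes may not show a change, so whether the semaphorin differences extended over the stretch could not be decided. Outside the stretch Elapor2, Grm3, Cd36 and Gnat3 were dim as well. The brighter Crot, Tmem243, Dmtf1, Gnai1, Phtf2 and Tmem60 were under 2-fold from parental ESCs. Sema3a and Sema3e, with 1 measured gene between them, had different profiles. Over the 748 genes of chromosome 5 with a mean above the median of all values (brighter genes) the median was −0.02, −0.05 and −0.01.

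**Figure D2:**
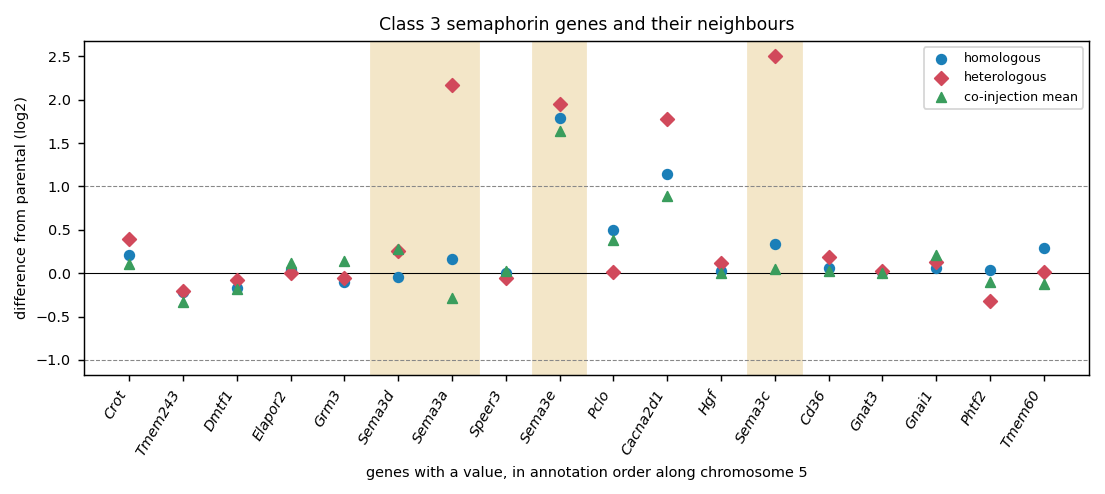
Difference from parental ESCs (log2, vertical axis) of genes with a value, in their order along chromosome 5 (not to distance), for the homologous line, the heterologous line and the co-injection mean, with the 4 class 3 semaphorin genes shaded. Sema3a and Sema3c are high in the heterologous line only (2.17 and 2.51), Sema3e is high in all lines, and Cacna2d1 is the one unshaded gene past the dashed lines at 2-fold.

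Of the 13 membrane semaphorins, Sema6a showed the widest difference from parental ESCs and did so on all 4 ESC-like arrays. Sema6a, a transmembrane semaphorin that binds plexin-A2 and plexin-A4, read 7.60 in parental ESCs, 10.78 in the homologous line, 10.58 in the heterologous line and 11.13 and 10.83 in the co-injection batches. These are 9.05-fold, 7.91-fold and 10.4-fold the parental value for the homologous line, the heterologous line and the co-injection mean. The spread among ESC-like arrays was 0.54, and the batch difference of 0.30 was the widest of all members (SD 0.21, n = 2). Sema6d, known in the chick heart as a ligand of plexin-A1, followed the heterologous pattern with 6.43, 6.75, 7.50, 6.51 and 6.51. Its heterologous value reached just past 2-fold (1.08), from a parental value below the median of all values.

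Some membrane semaphorins lay lower in ESC-like cells. Sema7a, a lipid-anchored semaphorin that signals through integrins and plexin-C1, read 9.02 in parental ESCs, 7.90 in the homologous line, 8.60 in the heterologous line and 8.13 and 8.22 in the co-injection batches. All 4 lines were below parental ESCs, and the homologous line alone was over 2-fold (−1.12). Sema5b, which inhibits the outgrowth of retinal neurites, read 9.10, 8.17, 8.53, 8.15 and 8.34, and so lay below parental ESCs on all 4 arrays by less than 2-fold. Sema4a (−0.46, −0.50 and −0.43) and Sema6c (−0.35, −0.72 and −0.45) were lower in each line as well. Sema4d, the ligand of plexin-B1, was lowest in the heterologous line (9.68 in parental ESCs, 9.71 homologous, 8.94 heterologous, 9.53 in both batches). A second Sema4d probe set gave −0.19 there in place of −0.74. Sema4c lay higher in each line (0.60, 0.91 and 0.43).

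Among the 9 plexins, the receptors that carry the semaphorin signal, 2 were over 2-fold higher in the heterologous line, Plxnd1 and Plxna2. Plxna2, a receptor of Sema6a and a partner of Nrp1, read 7.62 in parental ESCs, 7.97 in the homologous line, 8.93 in the heterologous line and 7.96 and 7.94 in the co-injection batches. The 3 other ESC-like arrays lay together, 0.32 to 0.35 above parental ESCs. Plxnb2, another receptor of class 4 semaphorins, was also highest in the heterologous line (0.26, 0.64 and −0.15). Plxnb1, the receptor of Sema4d, differed by 0.27, 0.26 and 0.29, and Plxna1 by 0.08, 0.17 and −0.06. Plxna3, which is on the X chromosome, differed by −0.29, −0.24 and −0.35, and Plxna4 by −0.37, −0.05 and −0.06.

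**Figure D3:**
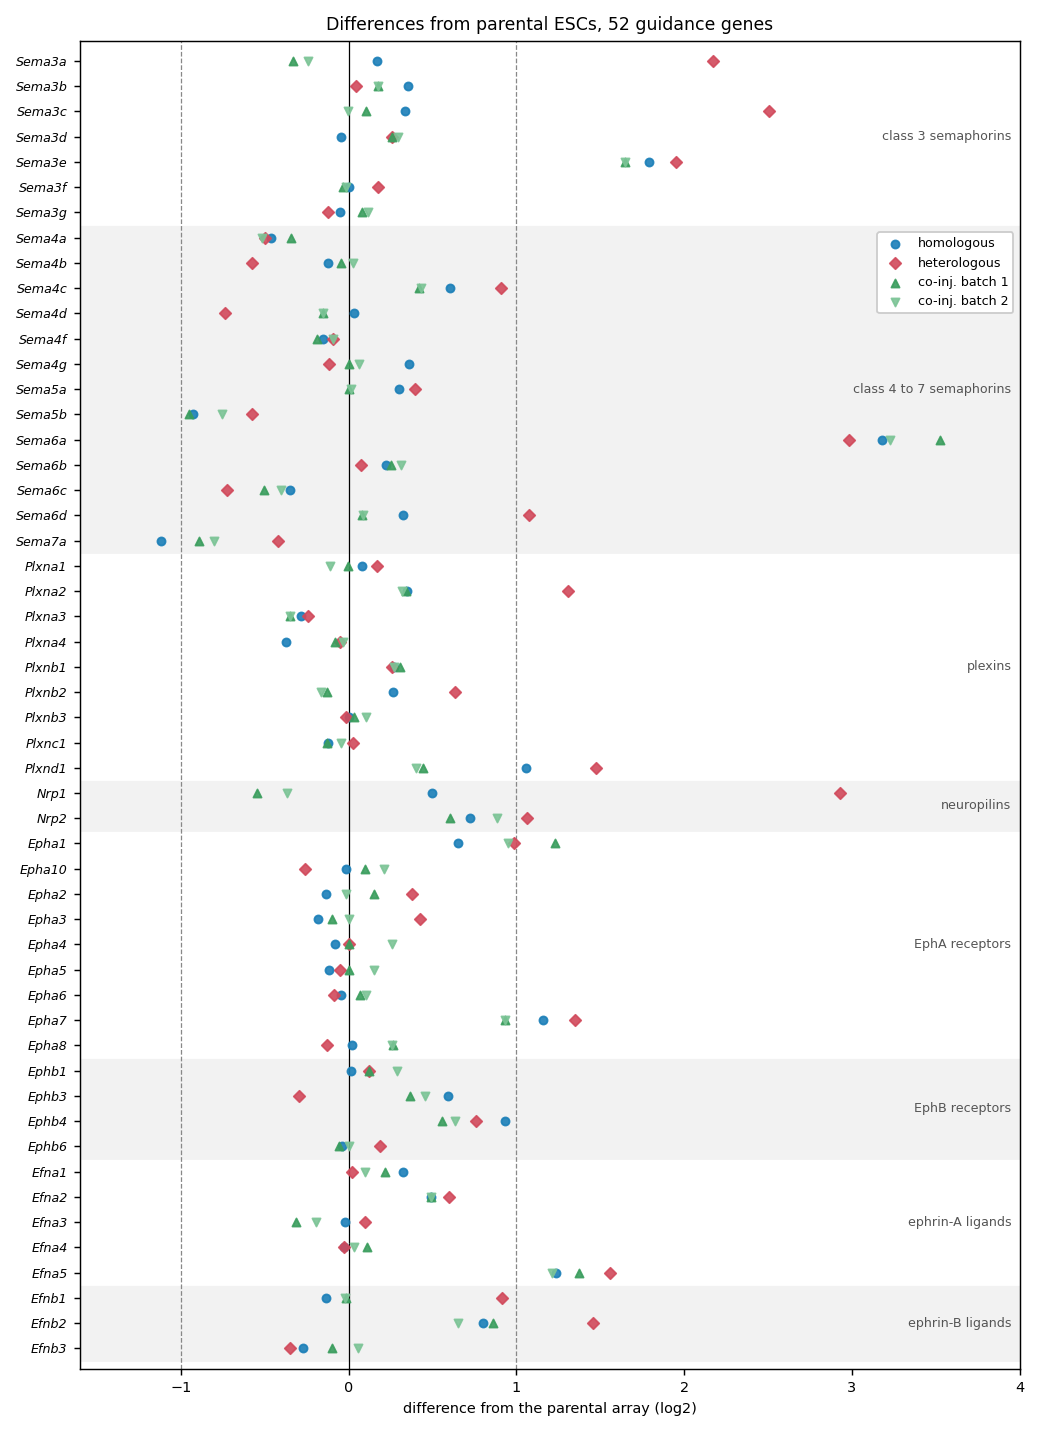
Difference from the parental array (log2, horizontal axis) for each of the 52 members, with 1 marker an ESC-like array and the genes grouped by role. Dashed lines mark 2-fold. Sema6a, Sema3e and Efna5 have all 4 markers past the right line, Nrp1, Sema3a and Sema3c have 1, and the 1 marker past the left line is Sema7a in the homologous line.

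Of the Eph receptors, Epha7 and Epha1 lay over 2-fold above parental ESCs on some arrays, and both were higher in all 4 lines. Epha7, a receptor that shapes the early neural tube and cortex, read 7.13 in parental ESCs, 8.29 in the homologous line, 8.48 in the heterologous line and 8.06 in both co-injection batches. The co-injection difference of 0.93 was just short of 2-fold. Epha1, which is expressed in epithelia, read 7.71, 8.36, 8.69, 8.94 and 8.66, and was over 2-fold in batch 1 (1.23) but not in batch 2 (0.95). For both genes the 4 ESC-like arrays lay apart from the parental array by more than they lay from each other.

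None of the other 7 EphA receptors differed from parental ESCs by more than Epha3 did in the heterologous line. Epha2, a receptor of epithelial cells, read 11.04, 10.90, 11.42, 11.19 and 11.03. Epha3 differed by −0.18, 0.43 and −0.05 and Epha10 by −0.02, −0.26 and 0.15. Among EphB receptors, Ephb4, the venous partner of ephrin-B2, read 8.54 in parental ESCs and 9.47, 9.30, 9.10 and 9.17 in the ESC-like lines, which is higher on all 4 arrays and under 2-fold. Ephb3, which positions cells in the gut crypt, was higher in the homologous line (0.59) and the co-injection mean (0.41) and lower in the heterologous line (−0.30). Ephb6, which lacks kinase activity, differed by −0.04, 0.19 and −0.03.

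Of the ephrins, Efna5 lay over 2-fold above parental ESCs on all 4 ESC-like arrays, and Efnb2 in the heterologous line. Efna5, a lipid-anchored ligand that maps retinal axons, read 7.56 in parental ESCs, 8.79 in the homologous line, 9.12 in the heterologous line and 8.93 and 8.77 in the co-injection batches. Its difference was 1.23, 1.56 and 1.29 (SD of the pair 0.11, n = 2), so this ligand and Epha7, one of its receptors, were both higher in each line. Efnb2, the transmembrane ephrin of arteries, read 8.79, 9.59, 10.25, 9.65 and 9.44. All 4 lines lay above parental ESCs, by 0.80 and 1.46 in the homologous and heterologous lines and by 0.76 in the co-injection mean. Nrp1 and Efnb2 are both on chromosome 8, where the median over 653 brighter genes was 0.26, 0.04 and 0.23, and the part of this shift in their values was not tested.

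Efnb1, an X-linked ephrin needed for neural crest and skeletal development, was higher in the heterologous line alone. It read 8.62 in parental ESCs, 8.49 in the homologous line, 9.53 in the heterologous line and 8.60 in both batches. That is 0.91 above parental ESCs and 1.05 above the homologous line, whereas the median over 359 brighter X-linked genes was −0.44, −0.47 and −0.50 in the homologous line, the heterologous line and the co-injection mean. The other ephrins were under 2-fold from parental ESCs on every array, with Efna2 (0.49, 0.60 and 0.49), Efna1 (0.33, 0.02 and 0.16), Efna3 (−0.02, 0.10 and −0.25), Efna4 (−0.03, −0.03 and 0.07) and Efnb3 (−0.27, −0.35 and −0.02).

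The over 2-fold members had several profiles across the 4 ESC-like arrays. Sema6a, Sema3e and Efna5 were over 2-fold higher on all 4 arrays, which is 5.77% of members beside 0.341% of all genes. Nrp1, Nrp2, Sema3a, Sema3c, Sema6d, Plxna2 and Efnb2 were over 2-fold higher on the heterologous array alone, which is 13.5% of members beside 2.94% of all genes. Plxnd1, Epha7 and Epha1 were over 2-fold on some arrays, and Sema7a was over 2-fold lower in the homologous line. No member was over 2-fold lower on all 4 arrays, beside 173 of all genes, a share of only 0.868%. The heterologous array held the highest of the 5 values for 23 members (44.2%, beside 19.2% of all genes). The parental array held the lowest for 19 members (36.5%, beside 21.9%) and the highest for 7 (13.5%, beside 23.6%).

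The lines were also set against each other, without the parental array. The heterologous line was over 2-fold above the homologous line for 4 members (7.69%, beside 2.41% of all genes), namely Nrp1 (2.43), Sema3c (2.17), Sema3a (2.00) and Efnb1 (1.05), and over 2-fold below it for 0 (beside 0.647%). The co-injection mean was over 2-fold below the heterologous line for 4 members (beside 2.99% of all genes), Nrp1 (−3.39), Sema3a (−2.46), Sema3c (−2.46) and Plxnd1 (−1.05), and over 2-fold above it for 0 (beside 0.361%). Plxna2, Sema6d and Efnb1 lay just inside 2-fold here (−0.98, −0.99 and −0.93), and the count was 7 after centring each difference on its median over all genes and 6 after cyclic loess. Both of these comparisons used the heterologous array. Between the co-injection mean and the homologous line 0 members were over 2-fold higher (beside 0.0752% of all genes) or lower (beside 0.351%), and the widest gap was that of Nrp1 (−0.95). The median over members was 0.11, −0.11 and 0.01 in these comparisons, beside −0.01, 0.07 and 0.04 over all genes. The batches themselves differed by a median of 0.078 over the members and by 0.30 at most.

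**Figure D4:**
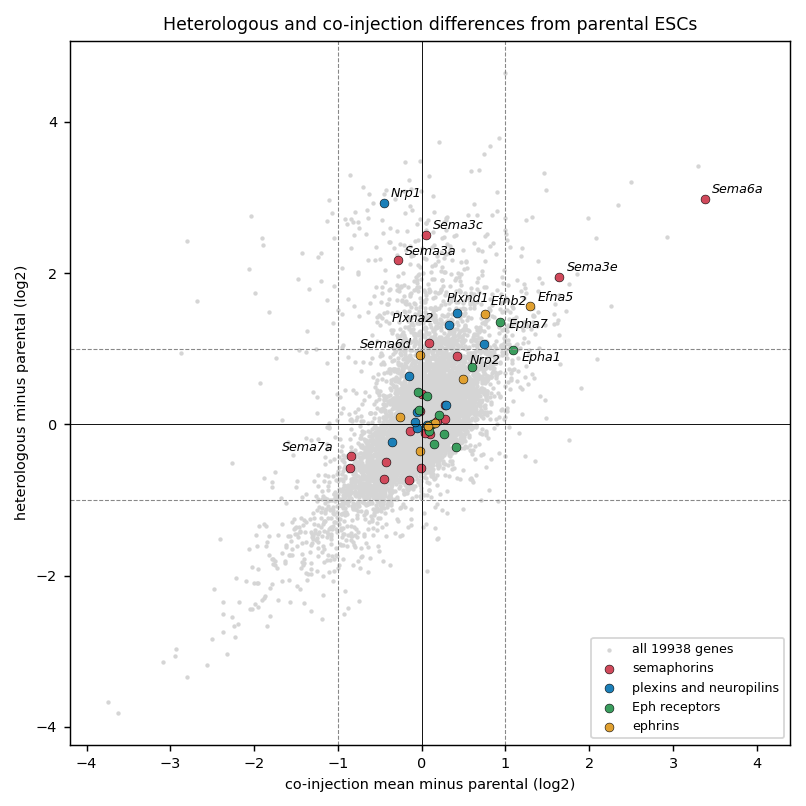
Difference of the heterologous line (vertical axis) against that of the co-injection mean (horizontal axis) from the same parental array, both log2, for all 19938 genes in grey and the members by family, with dashed lines at 2-fold. Sema6a, Sema3e and Efna5 lie to the upper right, whereas Nrp1, Sema3a and Sema3c lie high and near or left of 0 (2.93 against −0.46 for Nrp1).

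**Figure D5:**
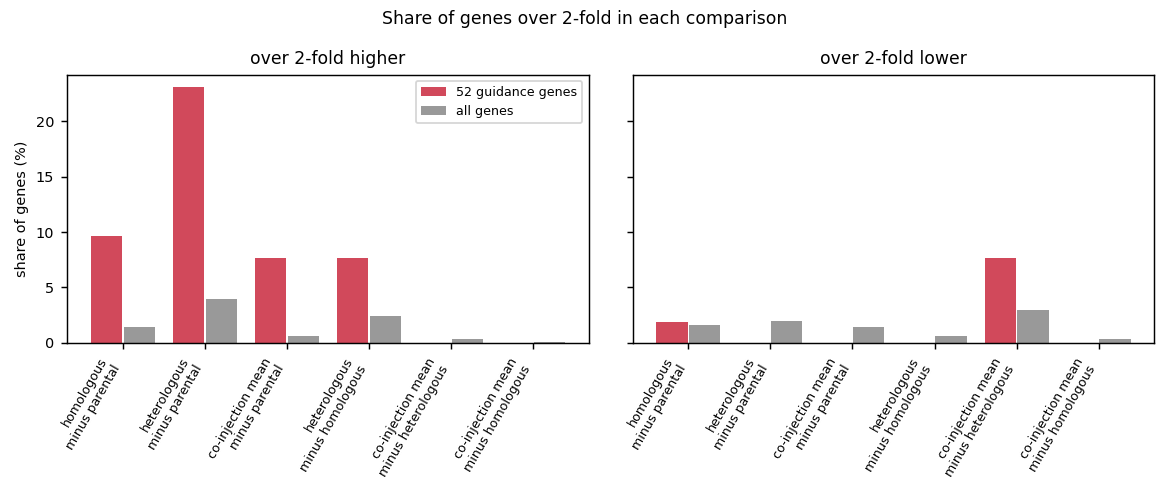
Share of genes over 2-fold higher (left) and lower (right) in each comparison, in percent on a common axis from 0, for the 52 members and for all genes. The heterologous line against parental ESCs has the tallest bar of members (23.1%, beside 3.98% of all genes).

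Of the lists for other cell types, the fibroblast list moved with the heterologous values. Of 15 fibroblast markers, 9 were over 2-fold higher in the heterologous line than in parental ESCs (median 1.64), beside 1 in the homologous line and 0 in the co-injection mean. The shares of all genes were 3.98%, 1.45% and 0.647% in the same order. The mean of the list was 8.22 in parental ESCs, 8.57 in the homologous line and 9.72 in the heterologous line. It was below the parental value in both co-injection batches (7.98 in batch 2), which is the order of Nrp1 and Sema3a across conditions. The log2 of the summed linear values of the list was 13.9, 14.3, 15.0, 13.8 and 13.9. Postn (7.02 in parental ESCs, 10.31 in the heterologous line), Pdgfrb (7.56 and 10.66) and Dcn (7.39 and 10.06) showed the widest differences of the 9. Their part in the values of Nrp1, Sema3a, Sema3c and the other members high in that line was not tested. Feeder fibroblasts were under all 5 populations, and in such bulk RNA more cells of a type and more RNA per cell cannot be told apart.

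Some of the neural list moved as well. Of its 9 measured genes, 3 were over 2-fold higher in the heterologous line, Fabp7 (4.65), Nes (2.52) and Pax6 (1.53). In the homologous line 2 were, and in the co-injection mean 1, beside 3.98%, 1.45% and 0.647% of all genes in these comparisons. The list median in the heterologous line was 0.31, and Tubb3 (−0.44) and Neurog2 (−0.22) were lower there. The list mean was 7.78, 8.27, 8.80, 8.08 and 8.13 on the 5 arrays. The part of this list in the members' values was not tested. Of 9 endothelial markers, 0 were over 2-fold higher in any line and 1, Pecam1, was lower in the heterologous line (−1.44), beside 1.95% of all genes. The mean of the list lay between 7.16 and 7.42. Of 8 macrophage markers, Lyz2 was higher in the heterologous line (1.16) and Cd68 lower in the homologous line (−1.31), with a list mean between 6.39 and 6.72. RMA values have no 0, so a low value cannot show whether a listed marker was present or absent.

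The genes that work beside the guidance receptors gave counts of their own. Of 32 measured partners of semaphorin signalling, 5 were over 2-fold higher in the heterologous line, beside 3.98% of all genes. There was 1 each in the homologous line and the co-injection mean, beside 1.45% and 0.647%. Dpysl2, a collapsin response mediator that relays Sema3a signals to the cytoskeleton, was higher in all lines (9.73 in parental ESCs, then 11.45, 11.47, 10.91 and 11.04). Mical2, an actin-oxidising enzyme of the Mical family of plexin effectors, was higher in the heterologous line alone (0.00, 1.85 and −0.30). Farp1 (0.96, 1.79 and 0.66), Met (0.72, 1.41 and 0.59) and Itgb1 (0.49, 1.33 and 0.38) completed the 5. Dpysl3 was over 2-fold lower in the co-injection mean (−1.13) and 0.81 higher in the heterologous line.

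Of 29 measured partners of Eph and ephrin signalling, 1 was over 2-fold higher in the heterologous line, near the share of all genes (3.98%). This was Pdzrn3 (0.30, 1.46 and −0.02), and there were 0 in the homologous line or the co-injection mean (beside 1.45% and 0.647%). Of 28 genes of the slit, netrin and repulsive guidance families, 4 were over 2-fold higher in the heterologous line, beside 3.98% of all genes, and 1 was lower, beside 1.95%. The higher genes were the secreted ligands Slit2 (0.73, 1.86 and 0.07) and Slit3 (0.46, 1.80 and −0.27), the netrin receptor Unc5b (0.68, 1.62 and 0.41) and the membrane protein Flrt2 (−0.25, 1.74 and −1.99). Robo4, an endothelial member of the slit receptor family, was over 2-fold lower in each line (−1.65, −1.48 and −1.08). Slit2 and Slit3, like Nrp1, Sema3a and Sema3c, had their highest value in the heterologous line and a co-injection mean near or below parental ESCs.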

How the data were processed

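Total RNA from 5 cell populations was measured on 1 Affymetrix Mouse Gene 1.0 ST array each. The authors processed the arrays with GCOS and RMA and deposited log2 values for 35556 probe sets an array, in a range of 2.77 to 14.0. Versions of these tools were not given in the sources used here. These deposited values were used with no further normalization. Scanner files were not used here, so background correction and a slide or scan block could not be tried.

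Symbols came from the platform annotation: 21789 probe sets named 1 gene, 1621 several and 12146 none. Genes were kept where a probe set named them alone, and the brightest by mean over 5 arrays was used; 4 members had 2 probe sets. The guidance genes and all lists were chosen with earlier results of these data known.

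Each difference is 1 array minus another, with both co-injection arrays averaged where they enter it. Over 2-fold means a log2 difference over 1 in size, the threshold of the study's methods, counted over all 19938 genes for the background. The number of arrays limits the precision. The SD of the co-injection pair (n = 2) is the only replicate spread, and nothing says that its batches were separate cultures of 1 line. Alternatives were 1.5-fold and 3-fold thresholds, a filter on dim probe sets, the mean of a gene's probe sets, cyclic loess, centring, leaving out each co-injection array, and limma with eBayes over all probe sets, which was tested on simulated data. Named were members over 2-fold in any comparison, the highest and lowest member of each role group against parental ESCs, the pair differing most between batches, and up to 3 genes in each direction per list. Sema3b, Sema3d, Sema4a, Sema4c, Sema6c, Plxna1, Plxnb1, Plxnb2, Epha2, Efna1 and Efna2 were named with values outside that rule, to show their role groups, after their values were seen. Promoter sequences were RefSeq's, build GRCm38.p6. Python 3.11.15, pandas 2.3.3, numpy 2.4.6, R 4.3.3 and limma 3.58.1 were used.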

Additional observations from a re-analysis of the deposited data

Results flagged for a closer look

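For Nrp1 and Sema3a the heterologous line and both co-injection arrays lay on opposite sides of the parental array. The parental and co-injection values of both genes were below the median of all values (7.49), so their small downward differences are uncertain. Nrp1 differed from parental ESCs by 2.93 (log2) in the heterologous line and by −0.55 and −0.36 in co-injection batches 1 and 2. Sema3a differed by 2.17 in the heterologous line and by −0.33 and −0.24 in the batches. Between the heterologous line and the co-injection mean, limma gave an adjusted p of 0.146 for both genes (unadjusted 0.00203 for Nrp1 and 0.00124 for Sema3a), which did not pass. That fit has 1 residual degree of freedom and takes the spread of the co-injection pair for the single heterologous array. The fibroblast list, whose mean was 8.22 in parental ESCs, 9.72 in the heterologous array and lower than parental in both co-injection arrays, moved the same way, and its part was not tested.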

How the results depend on the processing

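At 1.5-fold the members past the threshold were 13 (homologous against parental), 20 (heterologous against parental), 10 (co-injection mean against parental), 11 (heterologous against homologous), 10 (co-injection mean against heterologous) and 2 (co-injection mean against homologous), beside 9.51%, 13.2%, 6.91%, 8.67%, 8.02% and 1.47% of all genes. At 3-fold the first 3 became 2, 5 and 2, beside 0.792%, 2.23% and 0.542%. With limma (1 residual degree of freedom, 0.818 prior degrees of freedom) no member and no probe set passed an adjusted p under 0.05 in any of the 6 comparisons. Centring on the median of all genes raised the co-injection mean against heterologous count from 4 to 7, adding Efnb1, Plxna2 (−1.05) and Sema6d (−1.06). Cyclic loess gave 6 there and 1 member, Nrp1 (−1.02), for the co-injection mean against homologous. Leaving out a co-injection replicate gave 0 to 1 against homologous, 3 to 4 against parental ESCs (Epha1 at 0.95 without replicate 1) and 4 to 4 against heterologous. Without the heterologous array, an alternative chosen after seeing the data, members over 2-fold on at least 1 array went from 14 to 7. Of 49 counts under alternatives 31 stayed within 1.5 times and 18 moved. Of 270 differences of single members 200 stayed within the pair SD of their gene or did not change and 70 moved by more. Leaving out 1 co-injection replicate cannot move the pair mean by more than that SD, so those differences could only stay. For Sema3e and Epha7 the SD was 0, so any shift under cyclic loess or centring counted as moved. The split of the 270 is therefore no measure of stability. Among the 270 differences the sign changed for 0 of the 76 over 2-fold and for 7 of the other 194, whose differences were at most 0.104 in size. These alternatives moved single values by much less than 1. A difference over 2-fold therefore had no room to change sign, and the 0 is no check on it. The median over members in the homologous line went from 0.03 to 0.26 without the 9 dim members. No paired analysis was possible because a single group had more than 1 array. Background signal limits these dim members.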

Other observations

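Repeated values bound what the arrays resolve: 11 members (21.2%) and 30.2% of all genes had the same value on at least 2 of the 5 arrays, so small differences of such genes, among them Epha4, Epha5 and Sema3d, have no order.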
